A study of Mus musculus with 7 samples.

Results

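The collagen genes described here are all genes whose symbol in the platform annotation reads Col, a number, a, a number, measured by probe sets that name that gene alone. There were 42 such genes among the 18193 named genes of the array, covered by 82 probe sets, and 27 of them had more than 1 probe set. RefSeq lists 2 further genes of this naming pattern, Col6a6 and Col28a1, which no probe set used here names alone. Liver RNA of 3 wild-type mice (WT-27, WT-103 and WT-104) was set against that of 4 mice with a mir-122 knockout. The knockout animals are numbered KO-03, KO-90, KO-91, KO-94. All 7 animals were 2 months old and of the B6/129 background strain, and each was measured on its own Affymetrix mouse array. The labels give no sex, no litter and no account of how the knockout allele was made, so whether it also acts outside hepatocytes was not known here. The comparison asks how the transcripts of collagen chains differ in a liver without this microRNA, which is the most abundant one of hepatocytes.

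Collagens are extracellular proteins built from chains that wind around each other in a triple helix, and each chain is encoded by its own gene. The fibrillar types (type I, type III and type V in connective tissue) assemble into tension-bearing fibrils. Type IV forms the sheet-like network of basement membranes, type VI forms beaded microfilaments at the cell surface, and the FACIT types (fibril-associated collagens with interrupted triple helices) decorate fibrils. In the liver, hepatic stellate cells and portal fibroblasts are the main makers of fibrillar collagen, and types I and III accumulate in fibrosis. The prolyl hydroxylases need to modify the chains in the endoplasmic reticulum before a stable helix forms, and lysyl oxidases crosslink the fibrils outside the cell.

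Values are given as deposited, on the log2 scale, so that a difference of 1 is a doubling. Array medians lay between 4.65 and 4.72. The highest of 27 bacterial control probe sets on each array, between 4.71 and 5.23, served as a floor below which a level was not told from background. By the 1 probe set used for each of the 42 collagen genes, 18 were above the floor on all 7 arrays, 16 never exceeded it and 8 lay on both sides. Albumin, the main hepatocyte product, stood near the top of the scale in both genotypes, at 14.60 ± 0.04 (SD, n = 3 wild-type livers) and 14.63 ± 0.04 (SD, n = 4 knockout livers). The deleted microRNA has no probe set of its own among those named, so the genotype itself was not checked. The number of animals limits the precision of every value.

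In knockout livers 7 of the 42 collagen genes rose and 0 fell. They were the type I chains Col1a1 and Col1a2, the type III chain Col3a1, the type V chain Col5a2 and the type VI chains Col6a1, Col6a2 and Col6a3. The differences ran from 0.999 for Col6a2 to 2.13 for Col1a1. A gene counted as changed when its adjusted p in limma, with Benjamini-Hochberg adjustment over all 18193 genes, was under 0.05. By that rule 3.53% of all genes differed in either direction, 2.58% being higher and 0.951% lower in knockout, against 16.7% higher and 0 of 42 lower for the collagens. At an unadjusted p under 0.05, 14 collagen genes were higher and 0 lower, while 2981 of all 18193 genes passed that threshold in either direction. Every knockout array exceeded every wild-type array for 13 collagen genes (31.0%), against 9.15% of all genes, and the opposite order, seen in 6.62% of all genes, occurred for 0 of them.

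The rise was not seen over the family as a whole, but 16 of the 42 genes never exceeded the floor and 8 did so on some arrays only. For these genes a small difference does not show that the transcript was unchanged. The median difference of the 42 genes was 0.01, beside 0.01 over all genes, with 21 differences above 0 and 21 below. By class, 4 of 11 fibrillar genes rose, and 3 of 5 genes of type VI, whereas 0 of 6 basement membrane genes, 0 of 9 FACIT genes and 0 of the remaining 11 genes passed the test. Above the floor on all arrays were 6 fibrillar genes, 3 of type VI, 2 of the basement membrane and 3 FACIT genes. Of the 35 genes that did not pass, 23 differed by less than 0.2 in either direction, with 95% intervals that together spanned -0.64 to 0.44. The largest differences among those 35 were 0.81 (Col4a1) and -0.44 (Col5a3). Centring each array on its own median moved the median difference of all genes to -0.10, and the 7 collagens still passed the test after it.

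**Figure D1:**
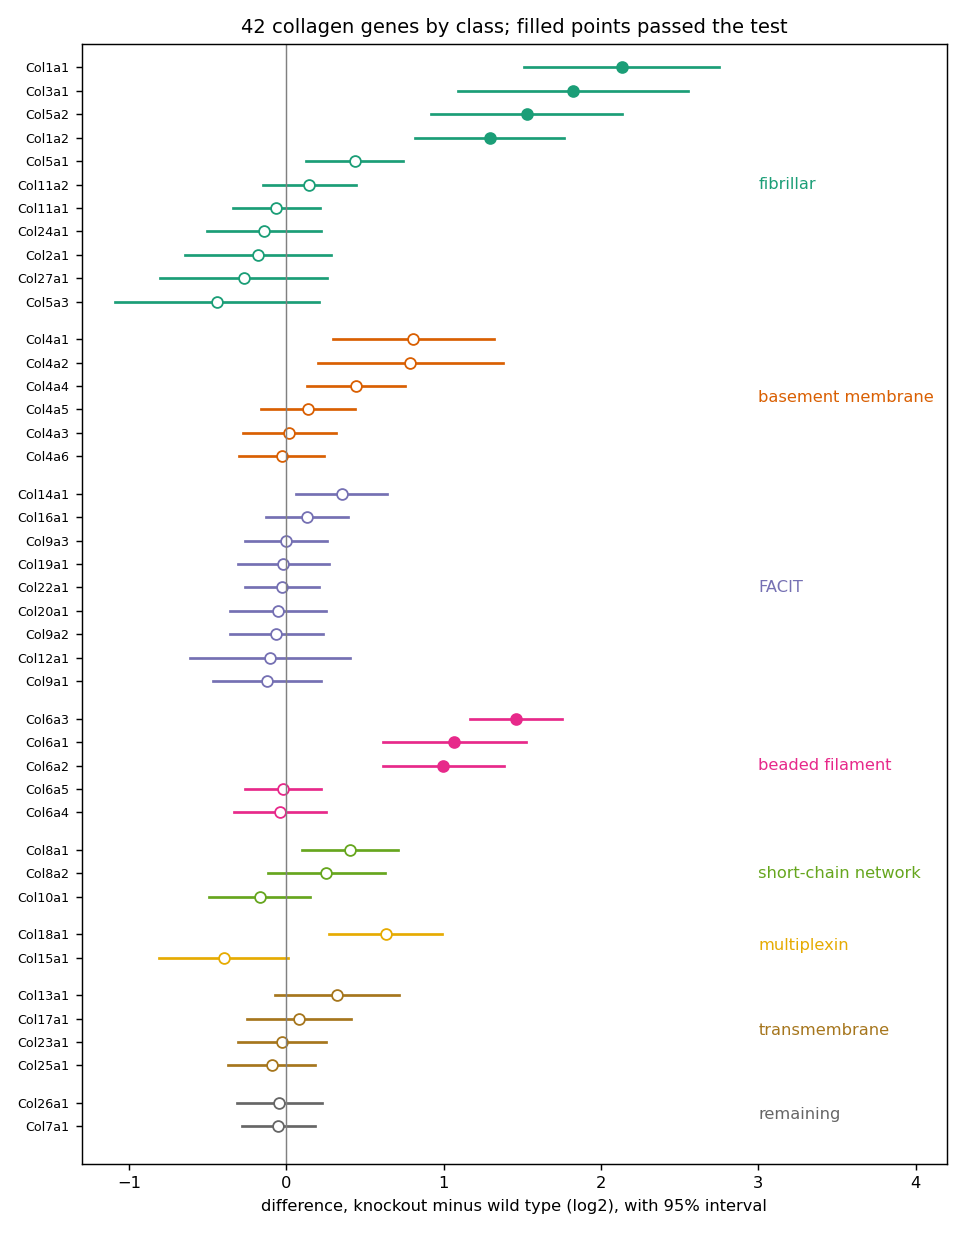
Difference between knockout and wild type (log2, x axis) for each of the 42 collagen genes, grouped by class, with lines for the 95% interval from limma; filled points passed the test. The 7 filled points are 4 fibrillar genes and 3 genes of type VI, all to the right of 0.

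Type I collagen, the principal fibril former of skin, bone and scar, joins chains from Col1a1 and Col1a2. Col1a1 (probe set 1423669_at) stood at 5.15, 4.77 and 5.26 in WT-27, WT-103 and WT-104. The knockouts, in the order KO-03, KO-90, KO-91, KO-94 kept below, stood at 6.53, 7.61, 6.96 and 7.67. The lowest knockout liver was more than 1 unit above the highest wild-type liver. The means were 5.06 ± 0.26 (SD, n = 3) and 7.19 ± 0.54 (SD, n = 4), a difference of 2.13 ± 0.27 (SE) with a limma adjusted p of 0.00502. WT-103 was under the floor, and with that array raised to it Col1a1 was at least 4.25-fold higher in knockout. Col1a2 (1450857_a_at) read 7.34, 7.09 and 7.40 in wild type and 8.140, 8.807, 8.329 and 9.0 in knockout, again without overlap. Its rise was 1.29 ± 0.21 (SE), or 2.45-fold, with a limma adjusted p of 0.0139.

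Type III collagen, whose single chain is encoded by Col3a1, forms the fine reticular fibres of soft organs such as the liver. Col3a1 (1427883_a_at) read 8.80, 8.16 and 8.95 in wild type and 9.85, 10.66, 10.11 and 11.22 in knockout. KO-94 was highest and KO-03 lowest among the knockouts, and the genotypes did not overlap. The rise was 1.82 ± 0.32 (SE), or 3.54-fold (limma adjusted p = 0.0199). Type V collagen sits inside type I fibrils and sets their diameter. Col5a2 (1422437_at), its second chain, read 6.10, 5.65 and 5.92 in wild type and 6.79, 7.38, 7.39 and 8.11 in knockout. It rose by 1.53 ± 0.27 (SE), or 2.88-fold (limma adjusted p = 0.0192), with no overlap between the genotypes.

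**Figure D2:**
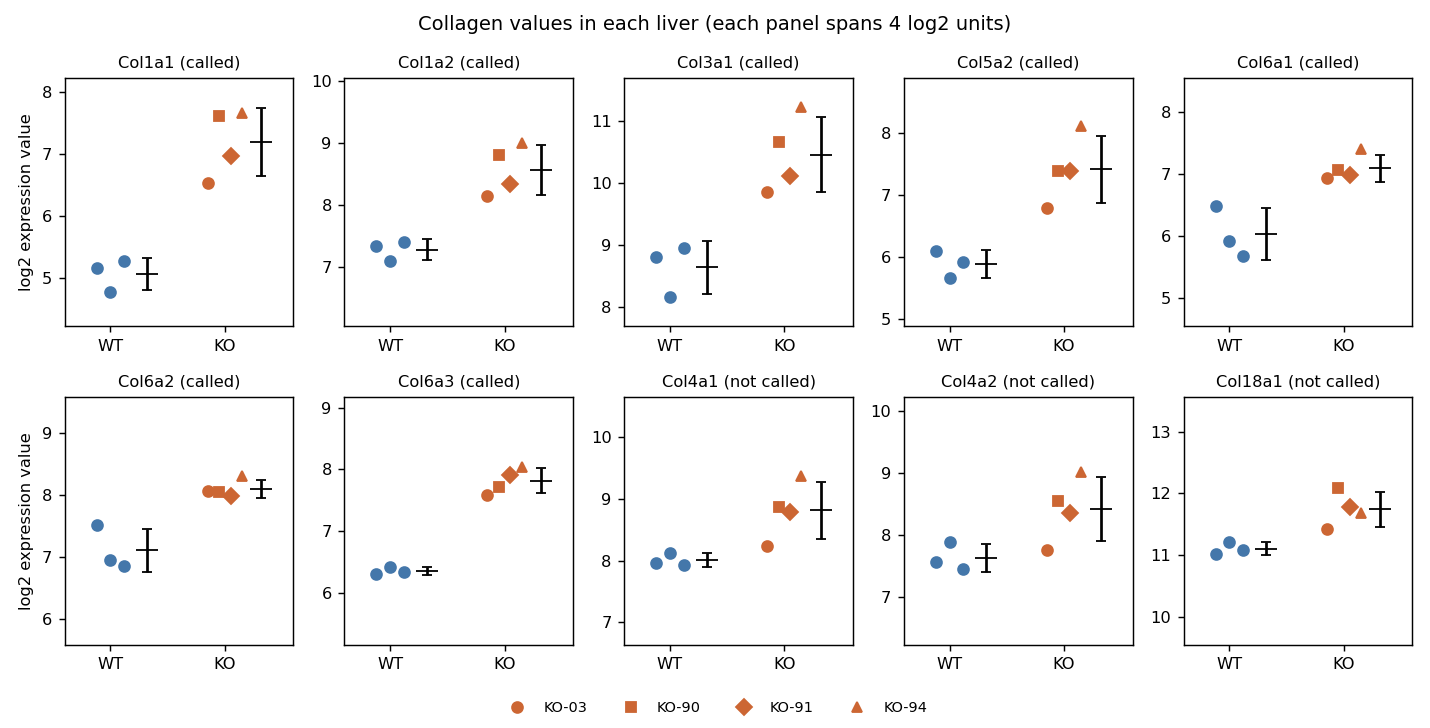
The log2 value (y axis, each panel spanning 4 units) of 10 collagen genes in each wild-type (blue) and knockout (orange, 1 symbol per animal) liver, with bars for the mean and SD of 3 and 4 animals. In the 7 panels marked as called all knockout livers lie above all wild-type livers, and KO-94 is the highest in each.

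The other partner of Col5a2 in type V collagen differed less. Col5a1 read 6.23, 6.12 and 5.96 in wild type and 6.38, 6.41, 6.56 and 6.81 in knockout. These ranges did not overlap, but the difference of 0.43 ± 0.14 (SE) missed the threshold (limma adjusted p = 0.144). Col5a3, the remaining type V chain, read 7.15, 7.82 and 6.41 in wild type and 6.52, 6.89, 6.84 and 6.48 in knockout, with WT-103 and WT-104 at opposite ends. Its difference was -0.44 (95% interval -1.09 to 0.21). Col27a1 had a difference of -0.27 (-0.80 to 0.26), and the cartilage chain Col2a1, under the floor in 2 knockout livers, one of -0.18. Col11a1, Col11a2 and Col24a1 never exceeded the floor.

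Several fibrillar genes were read by more than 1 probe set, and these did not always give the same size of change. The 7 called genes had 6 other probe sets, all with a higher knockout mean, 4 without overlap between the genotypes and 1 past the test. The 1 past the test was of Col6a2, a type VI gene, and none of the called fibrillar genes had another probe set that passed. The other Col1a1 probe set (1455494_at) was under the floor on 6 of 7 arrays and differed by 0.48, far less than the 2.13 above. Col1a2 had a second probe set, under the floor in 2 wild-type livers, that differed by at least 1.36, and another under the floor on all arrays at 0.02. The second Col3a1 probe set was at or under the floor in all wild-type livers and KO-03, and was higher in knockout by at least 0.87. That of Col5a2 was under the floor throughout. When all probe sets of a gene were averaged, Col1a2, Col3a1 and Col5a2 missed the threshold (limma adjusted p of 0.0538, 0.0508 and 0.0854) and 4 collagens passed.

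The bases before the start of 2 of these fibrillar genes are shown because their transcripts rose together while their promoters are of unlike composition. Each run gives the 250 bases upstream of the annotated start in RefSeq (GRCm38.p6), 5′ to 3′ on the gene's strand. Capitals mark matches of 4 motifs on either strand. The TATA box was searched as TATAAA. The CCAAT box was searched by the letters of its name. The GC box known to be bound by Sp1 was searched as GGGCGG. A pyrimidine-rich run, CCCTCC, was added after the windows had been read. The Col1a2 run lies at chr6:4505368-4505617 on the + strand and the Col3a1 run at chr1:45311288-45311537 on the + strand.
Col1a2: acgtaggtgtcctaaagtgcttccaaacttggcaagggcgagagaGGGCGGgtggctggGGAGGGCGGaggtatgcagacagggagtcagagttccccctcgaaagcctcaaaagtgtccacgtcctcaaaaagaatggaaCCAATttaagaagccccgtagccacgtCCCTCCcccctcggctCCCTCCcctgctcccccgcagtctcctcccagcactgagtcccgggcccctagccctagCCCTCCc
Col3a1: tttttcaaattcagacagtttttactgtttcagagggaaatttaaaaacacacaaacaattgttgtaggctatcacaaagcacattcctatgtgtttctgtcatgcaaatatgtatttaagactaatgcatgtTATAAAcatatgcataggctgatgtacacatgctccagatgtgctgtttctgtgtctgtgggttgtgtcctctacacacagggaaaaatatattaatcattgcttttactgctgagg
Col1a2 was GC-rich (62%) with 2 matches of GGGCGG, 1 of CCAAT and 4 of CCCTCC, of which 3 bases belonged to more than 1 match. Col3a1 was AT-rich (35.2% GC, against a median of 52.4% over all 32851 promoter windows) and held 1 TATAAA and none of the other motifs. A match is a run of letters and does not show that a factor binds there.

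Type VI collagen, a microfilament of the pericellular matrix that joins chains from Col6a1, Col6a2 and Col6a3, had the smallest standard errors among the genes that rose. Col6a3 (1424131_at) read 6.30, 6.42 and 6.34 in wild type and 7.59, 7.72, 7.92 and 8.04 in knockout. Its wild-type livers lay close together and the lowest knockout liver was more than 1 unit above them. The rise was 1.46 ± 0.13 (SE), or 2.75-fold, and its limma adjusted p of 0.00105 was the lowest of the 42 genes. Col6a1 (1448590_at) read 6.49, 5.92 and 5.68 in wild type and 6.93, 7.07, 6.98 and 7.41 in knockout. Col6a2 (1452250_a_at) read 7.51, 6.96 and 6.86 in wild type and 8.07, 8.05, 7.99 and 8.32 in knockout. In both genes WT-27 was the highest wild-type liver and still lay under every knockout liver. Col6a1 rose by 1.07 ± 0.20 (SE; limma adjusted p = 0.0250), or 2.10-fold, and Col6a2 by 0.999 ± 0.171 (SE; limma adjusted p = 0.0169), or 1.998-fold. The second Col6a2 probe set, the one past the test mentioned above, had a difference of 0.71. The 2 other measured chains of this type, Col6a4 and Col6a5, were under the floor on all arrays.

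The upstream runs of Col6a1 and Col6a3 are shown for comparison with those of Col1a2 and Col3a1, with the same build, capitals and orientation. Col6a1 lies at chr10:76726045-76726294 and Col6a3 at chr1:90843972-90844221, both on the - strand.
Col6a1: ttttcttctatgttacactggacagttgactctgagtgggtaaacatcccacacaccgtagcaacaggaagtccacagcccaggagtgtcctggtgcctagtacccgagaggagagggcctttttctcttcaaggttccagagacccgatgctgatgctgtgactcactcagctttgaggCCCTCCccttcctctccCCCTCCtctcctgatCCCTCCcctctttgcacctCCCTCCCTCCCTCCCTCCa
Col6a3: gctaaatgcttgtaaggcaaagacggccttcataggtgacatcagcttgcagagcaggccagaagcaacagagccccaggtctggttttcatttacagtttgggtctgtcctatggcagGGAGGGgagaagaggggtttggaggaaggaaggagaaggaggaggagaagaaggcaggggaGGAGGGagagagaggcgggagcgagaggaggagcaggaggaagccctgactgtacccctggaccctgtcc
Col6a1 held 7 matches of CCCTCC, all of them in the part of the window nearest the start and with 6 bases shared between matches, and Col6a3 held 2; neither had a match of the other motifs. RefSeq windows were at hand for 33 of the 42 collagen genes (36 windows) and for 5 of the 7 that rose (6 windows, since Col6a2 has 2). CCCTCC occurred in 5 of those 6 windows, in 58.3% of the collagen windows and in 35.2% of all windows. Because CCCTCC was added after windows had been read, these shares are no test of it. GGGCGG occurred in 3 of the 6, in 58.3% of the collagen windows and in 32.7% of all. TATAAA (12.4% of all windows) and CCAAT (33.8%) each occurred in 1 of the 6, and in 13.9% and 36.1% of the collagen windows.

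Type IV collagen is the network former of basement membranes, and the liver sinusoid is known for holding little of it. Col4a1 read 7.96, 8.13 and 7.92 in wild type and 8.24, 8.86, 8.78 and 9.36 in knockout. Its partner Col4a2 read 7.56, 7.88 and 7.45 in wild type and 7.76, 8.55, 8.35 and 9.01 in knockout. In both, KO-03 stood close to or within the wild-type range while the other 3 knockouts stood clear of it. The differences of 0.81 ± 0.23 (SE; limma adjusted p = 0.102) and 0.79 ± 0.26 (SE; limma adjusted p = 0.163) did not pass the test. They did pass without KO-03, at 0.998 and 1.01 with limma adjusted p of 0.0125 and 0.0208. That omission raised the number of collagens that passed from 7 to 11, the other 2 gains being Col18a1 and Col4a4. Over all genes it raised the number higher in knockout from 470 to 892. The probe sets used for Col4a3, Col4a4 and Col4a5 were under the floor on all arrays, as was a second one for Col4a5 on all but KO-91, though Col4a4 read higher in every knockout than in any wild-type liver, by 0.44 on average. Col4a6 differed by -0.03.

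Col18a1 encodes type XVIII, a multiplexin of vessel and sinusoidal basement membranes whose C-terminal fragment is endostatin and which hepatocytes also make. Its probe set 1426955_at read 11.03, 11.22 and 11.08 in wild type and 11.42, 12.09, 11.78 and 11.68 in knockout, without overlap. The difference of 0.63 ± 0.16 (SE; 95% interval 0.27 to 0.99) missed the threshold, with a limma adjusted p of 0.0687. A second probe set of the gene differed by 0.19 with overlap. The related Col15a1 read 4.87, 5.48 and 5.43 in wild type and 4.71, 4.85, 4.70 and 5.18 in knockout, 3 of those 4 at or under the floor. Its difference was -0.40 (95% interval -0.81 to 0.01). The short-chain collagen Col8a1, of vessel walls, read 5.003, 4.954 and 4.929 in wild type and 5.10, 5.38, 5.35 and 5.64 in knockout, a difference of at least 0.35, since WT-104 was under the floor, with a limma adjusted p of 0.166.

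Of the FACIT genes, which bind the surface of fibrils, Col14a1 came nearest to a change. It read 8.61, 8.45 and 8.69 in wild type and 8.93, 8.70, 8.99 and 9.11 in knockout, with WT-104 and KO-90 almost touching. Its difference was 0.35 ± 0.13 (SE; limma adjusted p = 0.207), and 2 other probe sets of the gene differed by 0.64 and 0.53. Col12a1 read 6.25, 6.36 and 5.73 in wild type, 6.57 in KO-03 and between 5.81 and 5.83 in the other knockouts, a difference of -0.10. Col16a1 differed by 0.13, Col9a3 by -0.0020 and the other 5 FACIT genes by -0.12 to -0.02, with Col9a1, Col9a2 and Col19a1 under the floor throughout. Among the transmembrane collagens, Col13a1 read 6.70 in KO-94 and between 5.88 and 6.18 in the other 6 livers, and Col25a1 differed by -0.09. Col17a1 and Col23a1 were under the floor throughout, as were Col8a2, Col10a1 and Col26a1, and the anchoring-fibril chain Col7a1 differed by -0.05.

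Across the knockout animals the genes that rose kept nearly the same order. KO-94 was the highest knockout in 7 of the 7 and KO-03 the lowest in 6, with KO-91 lowest for Col6a2. That order was common among genes that were higher in knockout: over all 470 of them KO-94 was highest in 49.8% and KO-03 lowest in 64.7%, and over all 18193 genes in 38.2% and 39.4%. The fibrillar genes that rose spread widely over the knockout animals, with SDs of 0.40 to 0.61, and the type VI genes less, with SDs of 0.15 to 0.22. The mean over the 42 genes lay between 5.40 and 5.44 in wild-type livers and between 5.64 and 5.85 in knockout livers.

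**Figure D3:**
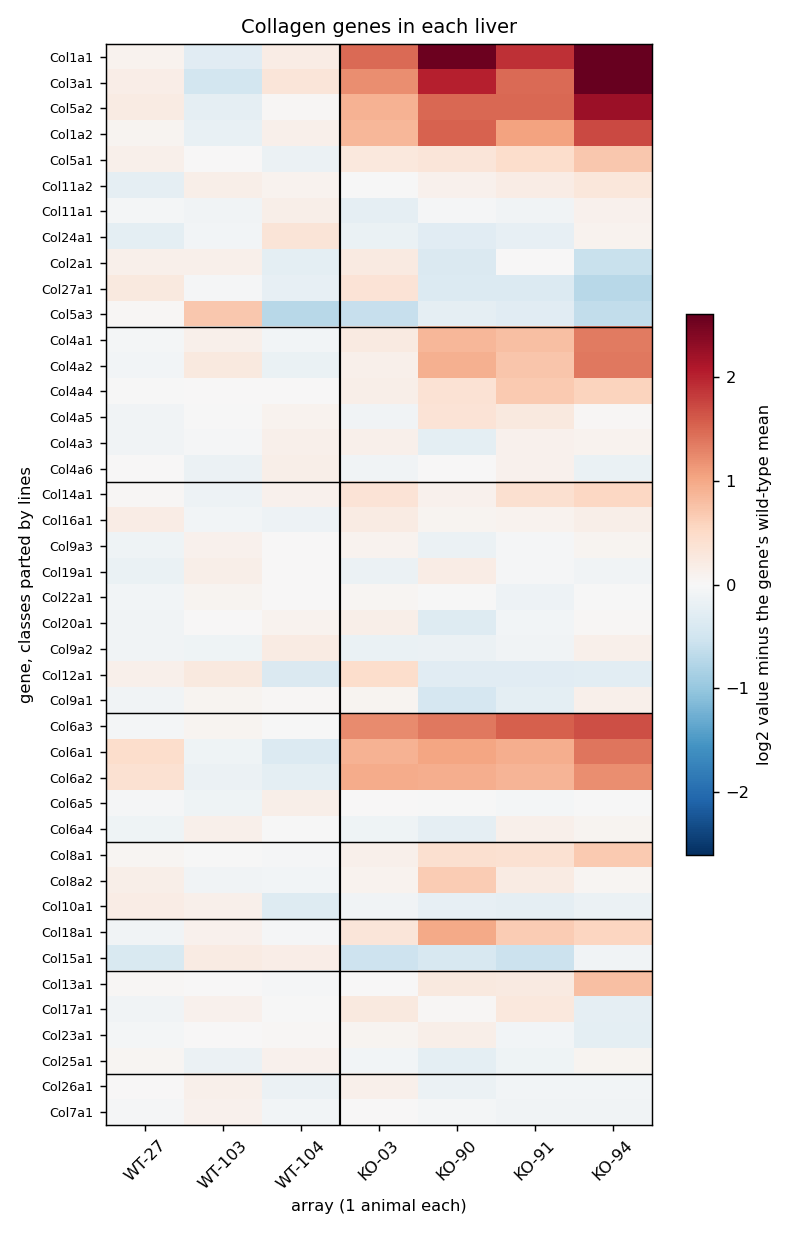
Colour map of each collagen gene (rows, by class) in each liver (columns), as the log2 value minus the gene's wild-type mean; red is above and blue below that mean. The red block in the 4 knockout columns covers Col1a1, Col3a1, Col5a2, Col1a2, Col6a3, Col6a1 and Col6a2, and most other rows stay pale.

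Chains that share a protein or a chromosomal neighbourhood were set against each other within each liver. The log2 gap between the probe sets of a pair was compared between genotypes in 8 pairs with an exact permutation test (two-sided, 35 assignments of animals to genotype), for which 0.0286 is the smallest possible p. Gaps show unequal change of the 2 probe sets only, since levels of different probe sets are not comparable. The size of a change can also differ between probe sets of 1 gene, as for Col1a1 (2.13 and 0.48). The gap of Col4a1 to Col4a2, neighbours transcribed in opposite directions whose RefSeq promoter windows of 300 bases overlap by 78 bases, lay between 0.25 and 0.48 on all 7 arrays. Its mean differed by 0.02 between genotypes (exact permutation p = 0.771, adjusted over 8 pairs 0.771). The gap of Col6a1 to Col6a2, also neighbours, lay between -1.18 and -0.91 and differed by 0.07 (exact permutation p = 0.314, adjusted 0.359). In both pairs the gap kept within a narrow range over all 7 livers.

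No difference in gap passed the test after adjustment over the 8 pairs, although 3 pairs reached the smallest possible p. With only 3 pairs at that p, adjustment over 8 pairs cannot give a value under 0.05. No conclusion is drawn from their missing the threshold. The gap of Col1a1 to Col1a2 was -2.18, -2.32 and -2.14 in wild type and -1.61, -1.20, -1.36 and -1.33 in knockout, a difference of 0.84 towards Col1a1. For Col5a2 to Col5a1 the gap was -0.13, -0.47 and -0.04 in wild type and 0.41, 0.97, 0.83 and 1.30 in knockout, a difference of 1.09. In each the genotypes did not overlap, and the exact permutation p was 0.0286, or 0.0762 after adjustment over the 8 pairs, which does not pass 0.05. Col6a3 to Col6a2 reached the same p-values with a difference of 0.46. Col3a1 to Col5a2, neighbours on chromosome 1, differed in gap by 0.30 with overlap (exact permutation p = 0.143, adjusted 0.190). For Col6a3 to Col6a1 the difference was 0.39 (0.0857, adjusted 0.171), and for Col4a4 to Col4a3, both under the floor, 0.42 (0.114, adjusted 0.183), by the same exact permutation test.

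**Figure D4:**
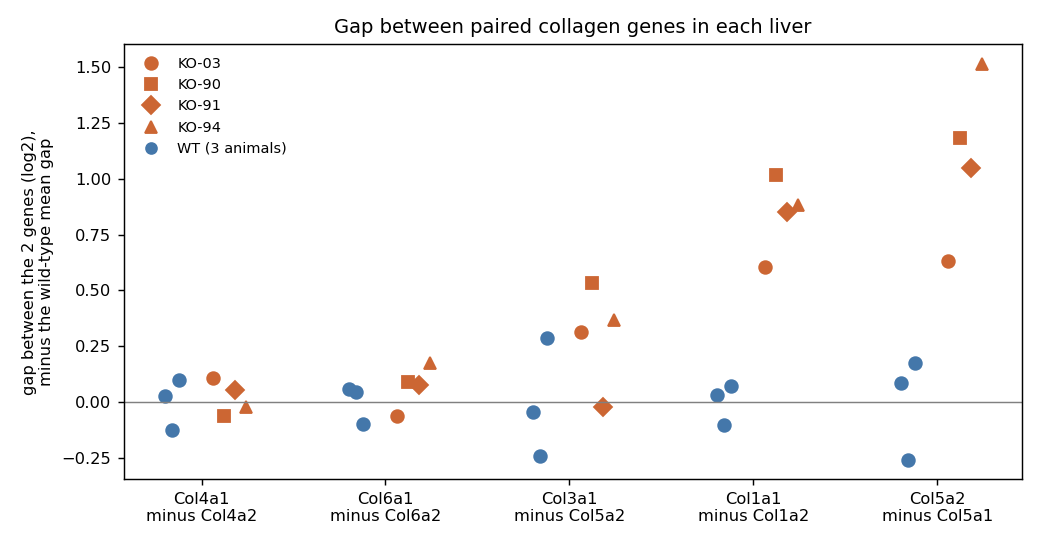
Gap between 2 collagen genes in each liver (log2, y axis), minus the mean gap in wild type, for 5 of the 8 pairs tested; blue points are wild-type and orange symbols knockout livers. The gaps of Col4a1 to Col4a2 and Col6a1 to Col6a2 stay near 0 in both genotypes, while those of Col1a1 to Col1a2 and Col5a2 to Col5a1 are above all wild-type gaps in every knockout liver.

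The genes that fold, secrete, trim, crosslink, bind and degrade collagen were taken as 7 lists with 58 measured genes. Of these 10 rose and 0 fell (17.2%, against 2.58% of all genes that were higher), and their median difference was 0.24. Among them is P4ha1, which encodes a catalytic chain, though not the only kind, of prolyl 4-hydroxylase, an enzyme that stabilises the triple helix. P4ha1 read 6.37, 5.87 and 5.77 in wild type and 7.63, 7.25, 7.52 and 7.48 in knockout, a rise of 1.46 ± 0.16 (SE; limma adjusted p = 0.00253). It was the only one of 15 prolyl and lysyl modification genes to pass. Ppib, the proline isomerase cyclophilin B, lay lower in all 4 knockouts (11.49 to 11.93) than in wild type (12.03 to 12.06) without passing (limma adjusted p = 0.161). Serpinh1, the collagen chaperone HSP47, read 6.79, 6.60 and 6.44 in wild type and 7.49, 7.18, 7.44 and 7.87 in knockout. It rose by 0.88 ± 0.17 (SE; limma adjusted p = 0.0267), 1 of 7 chaperone and secretion genes to do so. Pcolce, which speeds removal of the C-propeptide, rose by 0.78 (limma adjusted p = 0.0244), 1 of 6 in its list.

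Outside the cell, 1 of 4 crosslinking genes rose, Loxl1, a lysyl oxidase better known for elastin. It was under the floor in all wild-type livers and read 5.75, 7.27, 6.90 and 6.91 in knockout, at least 3.50-fold higher (limma adjusted p = 0.0140). A second Loxl1 probe set, at or under the floor on 5 arrays, differed by 0.03. Lox itself was under the floor in all wild-type livers and 3 of 4 knockouts (difference 0.50, limma adjusted p = 0.294). Of 8 genes that bind fibrils 4 rose, all with no overlap: the small leucine-rich proteoglycans Lum by 1.69 (limma adjusted p = 0.00354), Bgn by 1.06 (0.0149) and Dcn by 0.90 (0.0135), and the matricellular Sparc by 0.86 (0.0473). Of 9 degradation genes the gelatinase Mmp2 rose by 1.28 (limma adjusted p = 0.0326). Its activator Mmp14 differed by 1.04 (limma adjusted p = 0.0769). The inhibitor Timp1, under the floor in all wild-type livers and 2 knockouts, differed by 0.94 (limma adjusted p = 0.245). With wild type raised to the floor this was at least 0.51. Timp2 and Timp3 differed by 0.97 (limma adjusted p = 0.112) and 0.61 (0.144). Of 9 receptors only Mrc2, an endocytic collagen receptor, passed, at 0.80 (limma adjusted p = 0.0467), but it was under the floor on all 7 arrays and its other probe set differed by -0.07. The integrin chain Itgb1 differed by -0.05 and the collagen receptor kinase Ddr2 by 0.26.

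**Figure D5:**
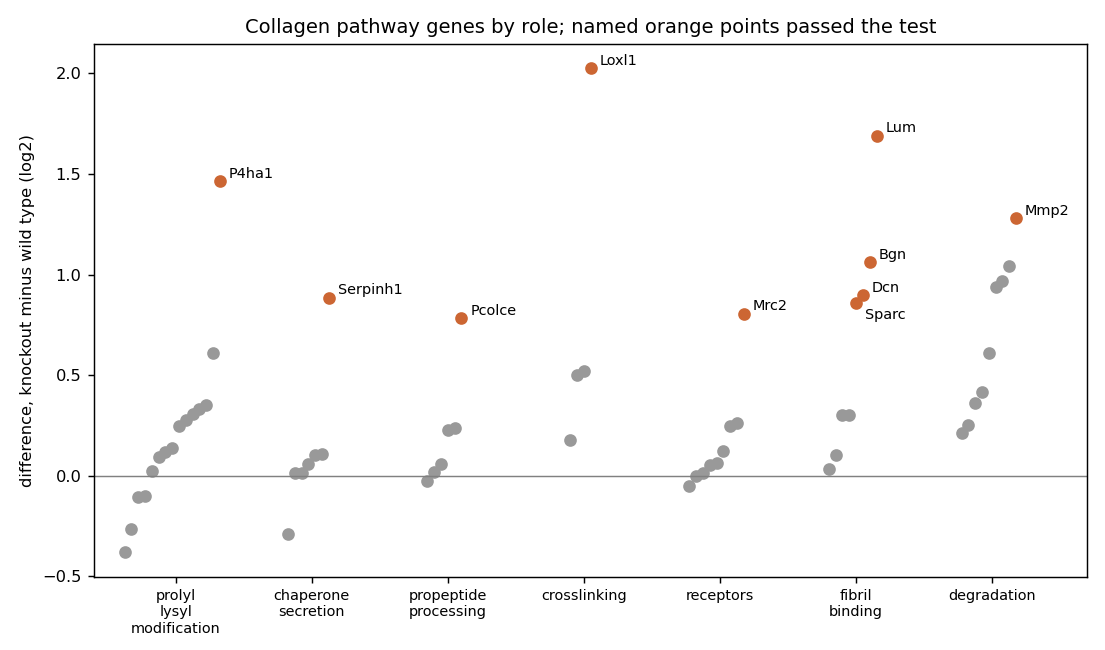
Difference between knockout and wild type (log2, y axis) for 58 genes that act on collagen, by role (x axis); named orange points passed the test and grey points did not. Each role has 1 named gene, except fibril binding with 4, and no gene below 0 passed.

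Collagen transcripts in whole liver come from few of its cells, and in bulk RNA more cells of a type and more RNA per cell cannot be told apart. Of 11 measured stellate cell markers 3 rose, or 27.3%, against 2.58% of all genes. They were the PDGF receptors Pdgfra by 1.41 (limma adjusted p = 0.00192) and Pdgfrb by 1.03 (0.00816), and the transcription factor Hand2 by 1.09 (0.0353). Hand2 missed the limma threshold without any 1 array other than KO-03 (adjusted p of 0.0549 to 0.164), and its 2 other probe sets, under the floor throughout, differed by 0.19 and 0.00028. Pdgfrb missed it without WT-103 (limma adjusted p = 0.0530). No other probe set of the PDGF receptors passed: that of Pdgfrb differed by 0.59. Those of Pdgfra differed by 0.97 and, under the floor on all arrays, by 0.36. The mean of the list lay between 6.56 and 6.67 in wild type and between 6.96 and 7.17 in knockout. Lrat, which esterifies retinol in these cells, differed by -0.13. Gfap, an intermediate filament of quiescent stellate cells, read 5.40, 5.41 and 5.25 in wild type and 5.31, 4.66, 5.04 and 4.71 in knockout, with 2 knockouts under the floor, and did not pass (limma adjusted p = 0.246). Of 5 myofibroblast markers 0 passed, with list means of 5.45 to 5.78 and 5.54 to 5.97. Acta2, the smooth muscle actin of activated stellate cells, read 7.02, 6.97 and 6.70 in wild type and 6.92, 7.65, 6.89 and 7.31 in knockout, with overlap (difference 0.29, limma adjusted p = 0.517).

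Portal fibroblast markers, 0 of 6 past the test, had list means of 4.83 to 4.96 in wild type and 5.11 to 5.84 in knockout. Among them Cd34 and Thy1 were under the floor in all wild-type livers, and Cd34 also in 2 knockouts and Thy1 in 1. Their differences were 1.40 (limma adjusted p = 0.0547) and 0.60 (limma adjusted p = 0.279), or at least 0.32 and 0.45 with wild type raised to the floor. Entpd2 differed by 0.48 without overlap (limma adjusted p = 0.0910). Of the 6 differences 5 were above 0, against 52.5% over all genes. In other marker lists 9 of 11 stellate, 4 of 5 myofibroblast, 7 of 7 bile duct and 5 of 8 sinusoidal endothelial differences were above 0. The same held for 8 of 8 Kupffer cell, 4 of 4 mesothelial and 4 of 9 hepatocyte markers. Bile duct markers were also higher in knockout: 4 of 7 rose (Cd24a, Tspan8, Epcam and Krt19), or 57.1%, against 2.58% of all genes. The list means lay between 4.19 and 4.46 in wild type and between 5.16 and 6.28 in knockout. Tspan8 was at or under the floor in all wild-type livers, Epcam and Krt19 in 2 and Cd24a in 1. Epcam and Tspan8 did not pass by the probe set with the highest wild-type mean (limma adjusted p of 0.671 and 0.286). Krt19 missed the limma threshold without any 1 array other than KO-03 (adjusted p of 0.05001 to 0.109), and Epcam without WT-103 (0.0556). For sinusoidal endothelial markers 0 of 8 passed, with list means of 7.16 to 7.24 and 7.16 to 7.45. The Kupffer cell list, also 0 of 8, had means of 8.17 to 8.76 and 8.502 to 8.994. Mesothelial markers, 0 of 4, averaged 3.80 to 4.08 and 4.13 to 4.52, with Msln and Wt1 under the floor throughout. Hepatocyte markers, 0 of 9, averaged 13.32 to 13.39 and 13.36 to 13.48. The part of these cell types in the collagen differences was not tested.

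The 7 rises differed in how often they still passed when single arrays were left out. Col1a1 and Col6a3 passed the test in all 18 alternative fits, among them those that left out each array in turn, and were the 2 collagens with an adjusted p under 0.01. All 7 kept a positive difference in every fit. Without WT-103, Col1a1 and Col6a3 alone still passed, and the limma adjusted p of Col1a2, Col3a1, Col5a2, Col6a1 and Col6a2 was 0.0781, 0.0947, 0.0991, 0.115 and 0.0912. Without WT-104, Col5a2 (0.0676), Col6a1 (0.0855) and Col6a2 (0.0661) missed the limma threshold, and without WT-27 Col3a1 (0.0582) and Col5a2 (0.05005) did. Leaving out KO-90 ended the limma calls of Col3a1 (0.0631), Col5a2 (0.0556) and Col6a1 (0.0669), KO-91 those of Col5a2 (0.0590) and Col6a1 (0.0650), and KO-94 that of Col6a1 (0.0508). Of the 58 pathway genes, 10 were higher with all arrays, 2 without WT-103, 3 without WT-27 and 6 without WT-104, KO-91 or KO-94.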

How the data were processed

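Per the labels' protocols, frozen liver RNA of 7 mice (3 wild-type, 4 knockout) was labelled with biotin and measured on Affymetrix mouse arrays. The deposited table gives log2 values of 45101 probe sets, computed by the authors with RMA (background correction, quantile normalization, probe summary) in Partek, per the submitters' processing notes; the sources used here give no version. Array values carry no read depth.

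Of these probe sets 34945 named 1 gene and 932 several, 9211 had no entry in the annotation used, and 34741 matched RefSeq (GRCm38.p6) by Entrez identifier. Each of 18193 genes was represented by its brightest probe set on average, knockout arrays included, which can favour one that is higher in knockout. The genotypes were compared in R 4.3.3 by limma 3.58.1 (lmFit, then eBayes; no covariates, tests in both directions), with 5 residual and 3.99 prior degrees of freedom, and this step was tested on simulated data. Where a difference is given as "at least", the dimmer group was raised on each array to the brightest of 27 control probe sets for Bacillus subtilis RNA. The raised values were not tested, and an adjusted p beside such a difference is that of the values as deposited.

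The members, gene lists and floor were chosen with earlier results of these data known. Open to naming were all collagens and, of each pathway list, the 4 members with the smallest p. P4ha1, Serpinh1, Lox, Itgb1, Ddr2 and Timp1 were added, and of each marker list the first listed and the 2 with the smallest p. The text does not name every gene that was open to naming. Hand2, Gfap, Epcam, Msln and Wt1 were named after their values were seen. Of 167 list entries 9 were not measured. Alternatives were other priors, array weights, normalizations, filters, probe set rules, thresholds and omitted arrays.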

Additional observations from a re-analysis of the deposited data

Results flagged for a closer look

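Among the 4 knockout livers, 4 of 120 sets of values had 1 liver far from the other 3 by Dixon's criterion, and chance alone gives about 1 in 20. Col12a1 stood at 6.57 in KO-03 and between 5.81 and 5.83 in the other knockouts. Col4a3 stood at 3.94 in KO-90 and between 4.29 and 4.33 in the others, all under the floor. The mean of Col7a1 and Col26a1 was 4.40 in KO-03 and 4.23 to 4.25 in the others. Tspan8, a bile duct marker, read 5.30 in KO-03 and 6.93 to 7.23 in the others, all above wild type (3.11 to 3.70).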

How the results depend on the processing

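Of 42 collagen genes, 7 were higher and 0 lower, and 0 were lower under each alternative run. An adjusted p under 0.01 left 2 collagens, averaging all probe sets 4, and leaving out single arrays between 2 and 11. For the 58 pathway genes the count of 10 became 2 under 0.01 and lay between 2 and 14 without single arrays, and 1 gene, Ppib, was lower with array weights. Over all genes, 470 higher became 909 with array weights, 724 without KO-03 and WT-104, 141 under 0.01 and 132 to 892 without single arrays. The 173 lower became 344 with array weights, 288 after median centring, 31 under 0.01 and 37 to 252 without single arrays. No paired analysis was possible because the animals' numbers do not recur between genotypes. Signal near the floor limits the 24 collagens that did not exceed it on every array.

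The sign turned only in small differences that did not pass the test, apart from Mrc2, at -0.070 with the probe set of highest wild-type mean. Array weights gave Col4a6 0.060, Col6a4 0.0070 and Clec4f -0.068, and renewed quantile normalization gave Col4a3 -0.0055. Averaging all probe sets gave Col12a1 0.044, Col19a1 0.0034, Col22a1 0.0054, Col26a1 0.018, Col4a3 -0.055, Col4a6 0.044, Col9a3 0.066, Mia3 -0.081 and Lrat 0.067. Without probe sets that can cross-hybridise, Mia3 was -0.15. Median centring gave Col17a1 -0.035, Col4a3 -0.095, Mia3 -0.012, Mia2 -0.0075, Tll2 -0.056, Clec4f -0.10 and Alb -0.078. Without KO-03 and WT-104, Col11a1 was 0.067, Col19a1 0.029, Col24a1 0.031, Col4a6 0.058, Col6a5 0.042, Col9a2 0.074, Lrat 0.26 and Clec4f -0.0077. Leaving out single arrays gave ranges of -0.12 to 0.011 for Col11a1, -0.29 to 0.020 for Col12a1, -0.11 to 0.057 for Col19a1, -0.12 to 0.040 for Col20a1, -0.066 to 0.0075 for Col22a1, -0.089 to 0.050 for Col23a1, -0.27 to 0.023 for Col24a1 and -0.12 to 0.021 for Col26a1. The same omissions gave -0.026 to 0.11 for Col4a3, -0.10 to 0.041 for Col4a6, -0.099 to 0.030 for Col6a4, -0.082 to 0.050 for Col6a5, -0.091 to 0.0062 for Col7a1, -0.13 to 0.040 for Col9a2 and -0.063 to 0.055 for Col9a3. Outside the collagens they gave -0.092 to 0.29 for Mia2, -0.0068 to 0.44 for Lair1, -0.32 to 0.18 for Lrat, -0.058 to 0.073 for Clec4f and -0.10 to 0.024 for Itgb1. The cause of these turns was not tested.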
